A study of Mus musculus with 26 samples.

Results

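Car4 encodes carbonic anhydrase 4, and this account follows it through 26 microarrays of sorted mouse endothelial cells in 9 groups. It was read by the 9 probe sets whose single gene symbol in the array annotation is Car4. They are 9 of the 53857 probe sets with 1 symbol, and Car4 is 1 of the 5109 genes that such probe sets represent. The gene was chosen by its measured log2 changes, which went in opposite directions in MCA313 tumour and kidney endothelium. Its change in J558L tumours was 0.04 ± 0.49 (SE). The contrasts of MCA313 tumour, J558L tumour and kidney with their uninduced controls are therefore described with their standard errors and without a test. The comparison of T cell groups in 16.113 tumours and that of 48 h with 24 h in MCA313 tumours were not contrasts of the choice and were tested. The MCA313 arrays of 24 h and 48 h nevertheless also enter the contrasts behind the choice, and earlier results of these data were known.

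Carbonic anhydrases interconvert carbon dioxide and bicarbonate, releasing or taking up a proton. CAR4 is held on the outer face of the plasma membrane by a glycosylphosphatidylinositol (GPI) anchor, where it can serve bicarbonate transporters. It is found on the luminal surface of capillaries, lung capillaries in particular, and is used as a marker of capillary endothelium. In the kidney it is also made by tubule cells of the proximal tubule and the thick ascending limb. Interferon gamma (IFNγ) acts on cells through a receptor whose signalling turns on interferon-inducible genes such as the GTPases of the IRG family.

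Tissue of female mice was digested, and cells that carried both CD31 and CD146, endothelial markers, were sorted. MCA313-IFNγ-IND tumours, whose cells can be induced to make IFNγ, grew in PIG-Pdgfb-Cre-IFNγ-del mice, in which endothelial cells alone carry the IFNγ receptor through Cre under the Pdgfb promoter. These tumours were sampled without induction (0 h, n = 3) and after 24 h (n = 2) and 48 h (n = 2) of IFNγ. J558L-IFNγ-GFP-IND tumours, from a plasmacytoma line that can be induced to make an IFNγ-GFP fusion, grew in Rag-/- mice, which lack mature T and B cells and carry the receptor on all cells. Their endothelium was sampled after 24 h of induction (n = 3) and without it (n = 2), and kidney endothelium of J558L-bearing mice after 24 h (n = 3) and without induction (n = 3). Mice of both models were 4 to 6 months old. 16.113 tumours grew in Rag-/- mice aged 3 to 4 months and were sampled 120 h after transfer of tumour-specific T cells that could make IFNγ (IFNγ+/+, called competent here, n = 3) or could not (IFNγ-/-, called deficient, n = 5). All 16.113 mice thus received T cells, and no 16.113 group without T cells was analysed here. The labels number the replicates without saying whether each came from its own animal, so the spread may be technical in part.

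The arrays formed 4 separately normalized sets, namely MCA313 tumour, J558L tumour, J558L kidney and 16.113 tumour, and levels were compared only within a set. All values below are on the log2 scale of the deposited table. The median over all probe sets of an array was 5.78 to 5.88 in the MCA313 set, 6.42 to 6.46 in J558L tumours, 6.33 to 6.40 in kidney and 5.62 to 5.79 in the 16.113 set. The gene is represented by probe set 17254515, its brightest over all arrays, unless another is named. Of the 4 measured pan-endothelial genes (Clec14a, Icam2, Pecam1 and Ptprb) all 4 exceeded the array median on every array, with mean levels of 10.83 to 13.0, and none passed the test in any comparison with a control group. The MCA313 control arrays differed among themselves in interferon-inducible genes. The mean of 5 interferon-inducible GTPase genes was 9.37, 10.8 and 11.27 on replicates 1, 2 and 3, lowest on replicate 1, whereas Ifi205 stood at 6.98, 6.76 and 8.83, highest on replicate 3. Correlations between the competent 16.113 arrays (0.847 to 0.889) were below those within any other group (0.912 to 0.955).

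Car4 lies on chromosome 11 (GRCm38.p6, 84957754 to 84966054). Its promoter window in RefSeq, from 250 bases before to 50 bases after the annotated start, is shown because interferon-inducible promoters often carry interferon response elements, which were searched for here. The capitals mark the stretch that holds both matches of CCGGAA, 1 on each strand.

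Car4 promoter, chr11:84957504-84957803, plus strand: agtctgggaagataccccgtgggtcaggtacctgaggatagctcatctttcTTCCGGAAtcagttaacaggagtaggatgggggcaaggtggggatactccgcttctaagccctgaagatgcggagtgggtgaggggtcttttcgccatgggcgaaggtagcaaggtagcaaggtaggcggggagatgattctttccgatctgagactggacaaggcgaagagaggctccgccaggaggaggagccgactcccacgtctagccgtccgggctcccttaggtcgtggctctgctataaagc

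The core of an interferon response element (GAAA and GAAA, with any 2 bases between) did not occur in this window on either strand. It occurred in 3.44% of 32851 promoter windows of the same length. TTCNNNGAA (N for any base), the letters of a site bound by STAT factors, was also searched. It did not occur in this window and occurred in 8.3% of the windows. CCGGAA, the letters of a site bound by ETS factors, was searched after the sequence had been read. Its 2 matches begin 199 and 197 bases before the start and overlap each other as TTCCGGAA, and 14.9% of the windows hold this motif. A match is a run of letters, and the absence of one says only that these letters are not in the window.

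In MCA313 tumours Car4 levels were 9.38, 9.11 and 11.26 without induction, 11.94 and 12.21 at 24 h, and 11.54 and 11.47 at 48 h. All 4 induced arrays were above all 3 uninduced ones, although the uninduced array of replicate 3 lay only 0.21 below the lowest array at 48 h. The mean at 24 h exceeded that at 0 h by 2.16 ± 0.49 (SE, 95% interval 1.14 to 3.18), a 4.48-fold difference. At 48 h the excess was 1.59 ± 0.49 (95% interval 0.57 to 2.61), or 3.02-fold. Among all genes tested, 14.1% and 15.0% also had higher values at 24 h and at 48 h with no overlap with the controls, so separation of the groups is common at this number of arrays. Without the control array of replicate 3 the excess of Car4 was 2.83 at 24 h and 2.26 at 48 h. Without the control array of replicate 2 it was 1.76 and 1.19.

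**Figure D1:**
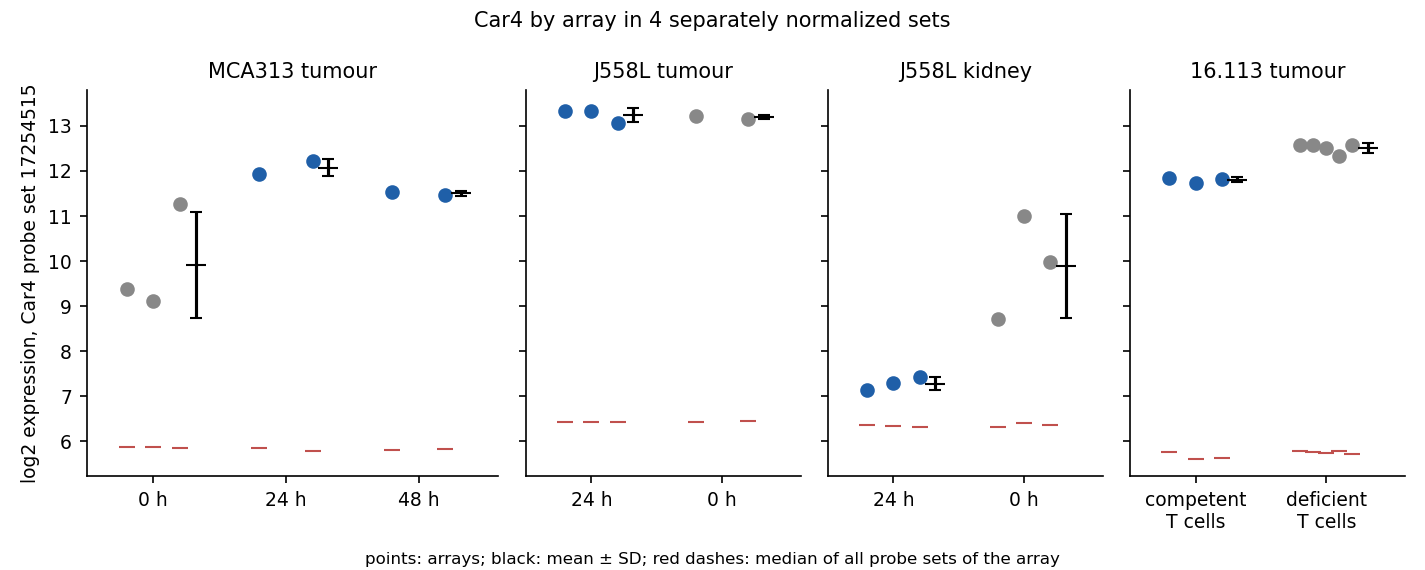
The plot shows the log2 level of Car4 (probe set 17254515) on every array, in 1 panel per separately normalized set, with group mean ± SD in black and array medians as red dashes; levels should be read within a panel only. MCA313 arrays at 24 h and 48 h (11.47 to 12.21) lie above their controls, kidney arrays at 24 h (7.14 to 7.42) lie below theirs, J558L tumour groups overlap, and competent 16.113 arrays (11.74 to 11.84) lie below deficient ones.

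Between the later and the earlier induced time in MCA313 tumours the Car4 level was lower by 0.57 (48 h minus 24 h, -0.57 ± 0.54, 95% interval -1.69 to 0.55). The difference did not pass the test (adjusted p = 1.0, limma, Benjamini-Hochberg over 4386 genes). The 2 arrays at 48 h lay below the 2 at 24 h, as was the case for 15.5% of all genes. Of the 9 probe sets 7 were lower at 48 h, with a median of -0.57, and 3 of all genes tested (0.0684%) passed in either direction.

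In J558L tumours Car4 levels were 13.34, 13.32 and 13.06 after 24 h of IFNγ-GFP, against 13.23 and 13.16 without induction. The groups overlapped, and the difference was 0.04 ± 0.49 (95% interval -0.98 to 1.07). These levels were above the 99th percentile of all probe sets on the same arrays (12.59 to 12.64). Over the 9 Car4 probe sets the differences were -0.41 to 0.14, each smaller than its standard error. At probe set 17254512, dimmer on these arrays, levels were 10.39, 11.04 and 10.04 after 24 h, against 11.05 and 10.75 without induction, a difference of -0.41 ± 0.67. On the same arrays Ifi205, added after its values were seen, stood at 12.14, 12.17 and 12.01 after 24 h, against 8.70 and 9.18 without induction. All 5 measured interferon-inducible GTPase genes had positive changes there, with a median of 0.88 and none past the test.

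In kidney endothelium Car4 levels were 7.14, 7.29 and 7.42 after 24 h, against 8.71, 11.00 and 9.97 without induction. All 3 induced arrays were below all 3 controls, which themselves spread over 2.29 log2 units. The mean was lower after 24 h by 2.60 ± 0.44 (log2 change -2.60, 95% interval -3.52 to -1.69), a 6.08-fold difference, and 12.0% of all genes tested were likewise lower with no overlap. The induced arrays stood 0.78 to 1.09 above their array medians, against 2.38 to 4.59 for the controls. Background was not measured, so the size of a difference that ends this near the array median is uncertain. Leaving out the control array of replicate 2, which had the highest level, gave -2.05, and leaving out replicate 1, which had the lowest, gave -3.19. In RNA of sorted cells, fewer Car4-bearing cells and less Car4 RNA per cell cannot be told apart.

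The Car4 response to 24 h of induction in MCA313 tumours exceeded that in kidney by 4.77 ± 0.66 (95% interval 3.39 to 6.14), and the response in J558L tumours exceeded that in kidney by 2.65 ± 0.66 (1.28 to 4.02). In the same 2 contrasts all 5 measured pericyte and smooth muscle genes were positive, with medians of 0.87 and 1.29 and none past the test, and their part in the Car4 values was not tested. J558L tumour and kidney came from mice of the same genotype with the same fusion protein, whereas MCA313 mice differ from the kidney donors in tumour, in protein and in the cells that carry the receptor, which cannot be told apart from the tissue. Over all genes 1 (0.0228%) passed the test of the J558L difference and 6 (0.137%) that of the MCA313 difference. These differences belong to the contrasts that led to the choice of Car4, and no test is given for the gene.

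In 16.113 tumours Car4 levels were 11.84, 11.74 and 11.83 with competent T cells. With deficient T cells they were 12.57, 12.57, 12.51, 12.33 and 12.58. All competent arrays were below all deficient ones, with a difference of -0.71 ± 0.39 (95% interval -1.53 to 0.11), 1.63-fold. This did not pass the test across all genes (adjusted p = 0.312 in limma), whose spread is shared by all 9 groups and includes the wide MCA313 and kidney controls. An exact two-sided permutation test of this gene alone, which was not the test planned, gave p = 0.0357 with n = 3 and n = 5. This is the smallest value the group sizes allow. It is not adjusted for other genes, and 5.79% of all genes were lower in competent arrays with no overlap. Across the alternative settings the difference lay between -1.13 and -0.60 and its adjusted p in limma between 0.0788 and 0.676. It thus passed in none of them, including the fit of the 16.113 arrays alone, which leaves out the MCA313 and kidney controls.

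Of the 9 probe sets 7 carried the pattern, and 17254509 and 17254511 did not. With set means removed, the other probe sets correlated with 17254515 at r = 0.78 to 0.97 over the 26 arrays, which share libraries and normalization. Probe set 17254509 had r = -0.05 and a level of 3.70 to 7.23, and 17254511 had r = 0.08 and a level of 6.51 to 8.83. The probe sets read different stretches of the transcript, and their positions were not analysed here. In MCA313 tumours at 24 h these 2 probe sets changed by -0.37 ± 0.67 and 0.10 ± 0.46, whereas the others were higher by 1.97 to 2.65. At 48 h the others were higher by 1.40 to 2.67, and these 2 changed by -0.07 and -0.10.

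**Figure D2:**
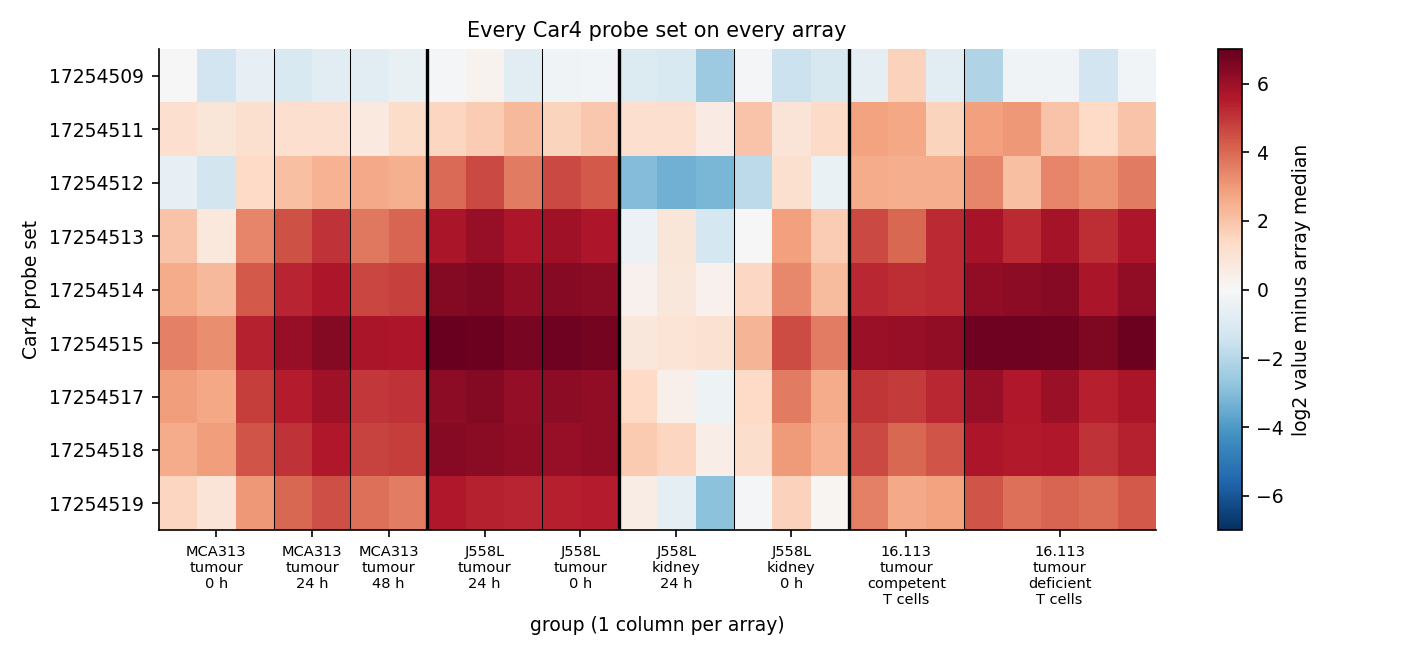
The colour map gives, for each of the 9 Car4 probe sets (rows) on each of the 26 arrays (columns, thick lines between tumour models or tissues, thin lines between groups), the log2 value minus the array's median over all probe sets, red above and blue below it. The middle rows follow 17254515, the row of 17254509 stays near or below the median apart from 1 competent 16.113 array, and the uninduced MCA313 array of replicate 3 is redder than replicates 1 and 2.

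The uninduced MCA313 array of replicate 3 was the highest of its group at each of the 7 probe sets that follow the brightest. At 17254514 its level was 10.17, against 8.46 and 8.16 on replicates 1 and 2, and at 17254518 it was 10.26, against 8.48 and 8.80. At 17254509 and 17254511 it lay between the other 2. In kidney all 9 probe sets were lower after 24 h, by 0.46 to 2.83 (log2 change -0.46 to -2.83), with a median of -1.85. The largest of these differences was at 17254512, with levels of 3.33, 2.97 and 3.15 after 24 h, against 4.52, 7.50 and 5.90 without induction, most of them below the array medians. Uninduced kidney arrays kept the same order at each of the 7 probe sets that followed the brightest, with replicate 2 highest and replicate 1 lowest.

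In J558L tumours the 9 probe sets changed by -0.41 to 0.14, 5 upward and 4 downward, with a median of 0.02. In 16.113 tumours 7 of 9 were lower in competent arrays, with a median of -0.79, and at 6 of the 9 the groups did not overlap. At 17254518 competent arrays had 10.39, 9.62 and 10.03, against 11.45, 11.31, 11.36, 10.83 and 11.09 in deficient arrays. This was the widest difference, -1.19 ± 0.40 (adjusted p = 0.0988 in limma over all probe sets), and no Car4 probe set passed. At 17254509, where the difference was 0.80 ± 0.54, 1 competent array at 7.23 lay apart from the other 2 at 5.16 and 4.85.

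**Figure D3:**
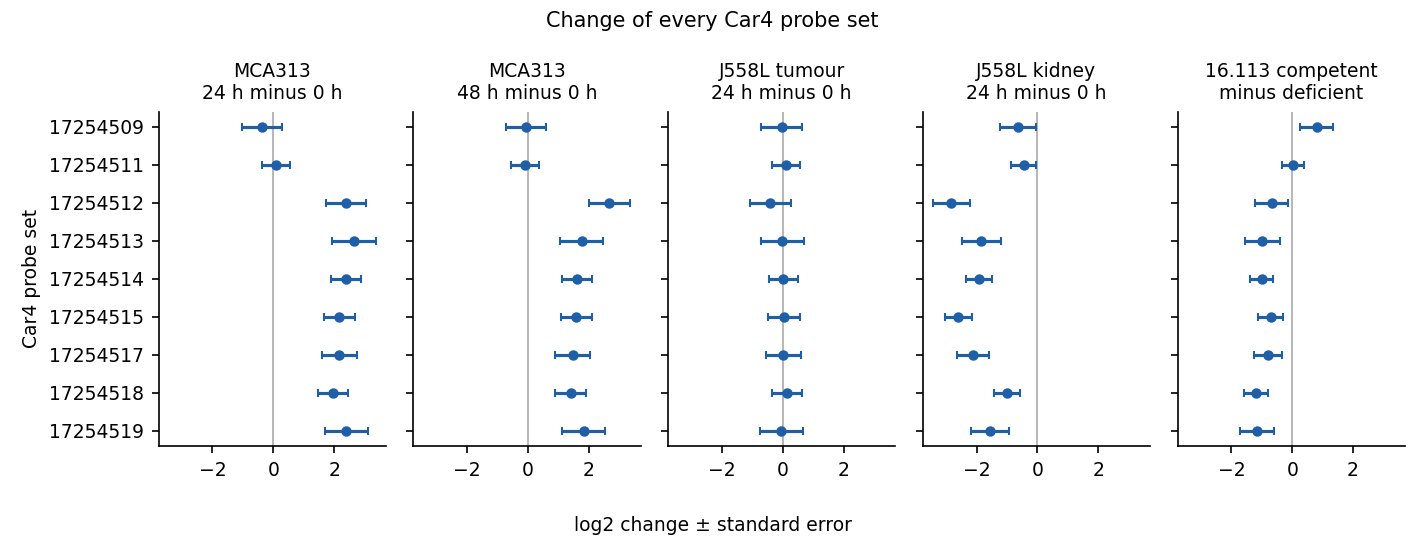
Points give the log2 change of each of the 9 Car4 probe sets (rows) in the 5 comparisons with a control group (panels), with bars of 1 standard error from a fit to all probe sets. The 7 lower rows move together in each panel, to the right in MCA313 tumours and to the left in kidney and 16.113 tumours, while 17254509 and 17254511 stay closer to 0, apart from 17254509 in 16.113 tumours at 0.80.

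Of 15 other carbonic anhydrase genes listed, 1 was measured, since the deposited values used here cover genes of a few chromosomes, mainly 1, 10, 11, 12 and 13. Car10, a carbonic anhydrase-related gene whose protein lacks catalytic activity, changed by 0.48 and 0.37 in MCA313 tumours at 24 h and 48 h, by -0.22 in J558L tumours, by -0.08 in kidney and by -0.13 in 16.113 tumours, none past the test. In MCA313 tumours at 24 h 9 of its 20 probe sets had the sign of the brightest.

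Genes that move bicarbonate, protons and lactate across membranes, the transport that carbonic anhydrases serve, were measured for 20 of 48 listed. In MCA313 tumours at 24 h 1 of the 20 rose and none fell, against 0.684% of all genes past the test. This was Slc16a11, a monocarboxylate transporter, which rose by 1.59 ± 0.35 (adjusted p = 0.0398, limma), with 7 of its 10 probe sets higher and a median of 0.29. The call was lost when any of 4 of the 5 arrays was left out (the exception was control replicate 3), with adjusted p up to 0.215. The mean of its controls (5.25) lay below the array medians, so the size of the rise is uncertain. In kidney 1 of 20 fell and none rose, against 3.17% of all genes past the test and 1.53% that fell. This was Slc16a3, the lactate exporter MCT4, with levels of 5.80, 5.78 and 6.68 after 24 h, against 8.77, 8.10 and 8.31 without induction at its brightest probe set (-2.31 ± 0.38, adjusted p = 0.00133, limma). Its mean after 24 h (6.09) lay below the array medians, so the size of the fall is uncertain. The fall rests on part of the gene, since 4 of its 11 probe sets were lower and their median was 0.06. With the mean over all its probe sets the change was -0.22 (adjusted p = 0.602). None of the 20 passed in MCA313 tumours at 48 h, in J558L tumours or in 16.113 tumours. The list medians were 0.06, 0.13, 0.09, 0.29 and -0.14 in MCA313 24 h, MCA313 48 h, J558L tumour, kidney and 16.113, against -0.01, -0.02, -0.01, 0.01 and -0.03 over all genes.

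Of 30 listed genes that build and attach GPI anchors 9 were measured. Pigm, which encodes the first mannosyltransferase of the pathway, fell in competent 16.113 arrays (-0.88 ± 0.20, adjusted p = 0.00874, limma), with 2 of its 3 probe sets lower and a median of -0.16. It passed whichever array was left out, but not with the mean (-0.29, adjusted p = 0.173) or the median (-0.45, adjusted p = 0.207) of its probe sets, nor in a fit of the 16.113 arrays alone (-0.88, adjusted p = 0.0806). It was 1 of 9 there, against 7.36% of all genes past the test and 4.81% that fell. None of the 9 passed in the other 4 comparisons with a control, where their medians lay between -0.26 and 0.04.

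Car4 was compared with 14 other genes of a list of 46 capillary endothelial genes. None of the 14 rose in any of the 5 comparisons with a control group. In MCA313 tumours at 24 h none passed the test and 8 of 14 had negative changes, with a median of -0.06. At 48 h 3 of the 14 fell, against 1.37% of all genes past the test in either direction, and 12 of 14 changes were negative, with a median of -0.08. The 3 were Meox1, a homeobox transcription factor gene (-1.48 ± 0.24, adjusted p = 0.00243), Cd300lg, which encodes the capillary membrane protein nepmucin (-1.41 ± 0.33, adjusted p = 0.0394), and Ace, the angiotensin-converting enzyme (-1.29 ± 0.29, adjusted p = 0.0327), all in limma. Ace levels were 9.68 and 10.42 at 48 h, against 11.44, 11.00 and 11.60 without induction, and all 25 of its probe sets were lower. The uninduced replicate 3, high for Car4, was also the highest of its group for Ace. Without replicate 1 at 48 h none of the 3 passed (Meox1 -1.21, adjusted p = 0.17; Cd300lg -1.31, 0.376; Ace -0.93, 0.502). Ace also failed without control replicate 1 (adjusted p = 0.123) or 3 (0.0948), and Cd300lg without any 1 of the 5 arrays (0.0796 to 0.376).

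In kidney 2 of the 14 fell, against 1.53% of all genes. Ace levels were 11.15, 10.53 and 10.65 after 24 h, against 11.73, 12.09 and 12.47 without induction (-1.32 ± 0.26, adjusted p = 0.00633, limma), with all 25 probe sets lower. Btnl9, a butyrophilin-like gene, fell by 1.29 ± 0.34 at the brightest probe set (log2 change -1.29, adjusted p = 0.0406, limma), with all 11 probe sets lower. Ace passed whichever array was left out but not in a fit of the kidney arrays alone (-1.32, adjusted p = 0.0677), and Btnl9 passed only without control replicate 1 (adjusted p 0.0952 to 0.167 without any other). Changes were negative for 11 of 14, with a median of -0.30, against 0.01 over all genes. Tmem100, a gene of BMP signalling in endothelium, changed by -0.31 ± 0.70 and Cd300lg by -0.90 ± 0.30 (adjusted p = 0.123), neither past the test.

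In J558L tumours none of the 14 passed, against 0.547% of all genes. The median was -0.11, and Btnl9 had -1.34 ± 0.38 (adjusted p = 0.134, limma) and Tmem100 1.51 ± 0.78 (adjusted p = 0.69). In 16.113 tumours 1 of 14 fell, a share near the 4.81% of all genes that fell and the 7.36% past the test, namely Igfbp3, which encodes a binding protein for insulin-like growth factors (-0.45 ± 0.13, adjusted p = 0.0353, limma), with all 6 probe sets lower, and the median was -0.05. Its call was lost without competent replicate 1 or 2 or any deficient array (adjusted p 0.0515 to 0.146). Cd300lg there was at 0.73 ± 0.27 (adjusted p = 0.104).

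**Figure D4:**
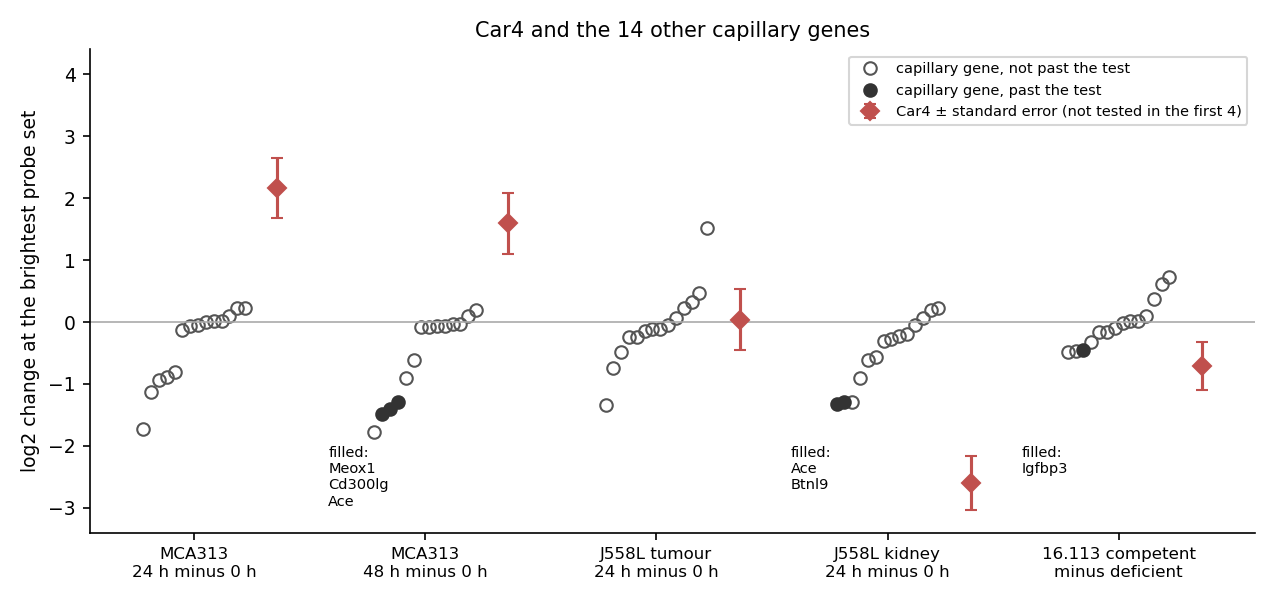
Each point is the log2 change of 1 of 14 capillary genes at its brightest probe set in each of 5 comparisons, filled where the gene passed the test, and the red diamond is Car4 ± standard error. In MCA313 tumours Car4 (2.16 and 1.59) lies above all 14 points and in kidney (-2.60) below all 14, where Ace and Btnl9 also fell. Car4 was chosen by its changes in these contrasts, so its place outside the other points there is in part fixed by the choice.

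Arterial and venous genes past the test all fell, 1 of its list in each case. The share of all genes past the test was 0.684% in MCA313 tumours at 24 h, 1.37% at 48 h and 7.36% in 16.113 tumours. Of 6 measured arterial genes, Fbln5, an elastic fibre gene, fell in MCA313 tumours at 24 h (-1.76 ± 0.40, adjusted p = 0.0421, limma) and Unc5b, a netrin receptor gene, fell in 16.113 tumours (-0.78 ± 0.23, adjusted p = 0.0463). Of 4 measured venous genes, Sele, which encodes E-selectin, fell in MCA313 tumours at 48 h (-2.24 ± 0.49, adjusted p = 0.0249, limma). Without replicate 1 at 24 h Fbln5 did not pass (-1.20, adjusted p = 0.322), nor without control replicate 1 (0.204) or 3 (0.0723). Without replicate 1 at 48 h Sele did not pass (-1.17, adjusted p = 0.557), nor without control replicate 1 (0.102) or 2 (0.0606). Unc5b did not pass when any 1 of 6 of the 8 arrays was left out (adjusted p 0.0638 to 0.117). No arterial or venous gene passed in J558L tumours or kidney. Arterial list medians were -0.71, -0.64, -0.27, -0.11 and -0.14 in MCA313 24 h, MCA313 48 h, J558L tumour, kidney and 16.113. Venous list medians were -0.11, -0.82, -0.91, 0.03 and -0.97 in the same order, against -0.01, -0.02, -0.01, 0.01 and -0.03 over all genes. All 4 venous changes were negative in J558L tumours and in 16.113 tumours.

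Because Car4 is also made by kidney tubules, markers of other cells were read on the kidney arrays. The mean level of 4 measured proximal tubule genes of 35 listed (Ggt1, Slc47a1, Slc5a8 and Upb1) was 7.43 to 7.99 after 24 h, against 7.19 to 7.72 without induction, and 3 of 4 changes were positive. That of 4 of 25 genes of the loop and distal nephron was 8.40 to 8.66 after 24 h, against 8.15 to 8.55. None of these 8 passed the test. On J558L tumour arrays after 24 h, a set normalized separately, the proximal tubule mean was 7.27 to 7.78. The loop and distal mean there was 8.55 to 8.80. Levels of separately normalized sets are not comparable, so these values do not show whether these genes register tubule cells. The part of such cells in the Car4 difference was not tested. The defining genes of these tubule cells were mostly not measured, and no podocyte gene of 10 was. The mean level of 5 of 15 pericyte and smooth muscle genes was 7.86 to 8.12 after 24 h, against 8.51 to 9.01 without induction. All 5 (Des, Higd1b, Lmod1, Ndufa4l2 and Rgs5) had negative changes, with a median of -0.76 and none past the test. Among the uninduced arrays the highest pericyte level (9.01) was on replicate 1, where Car4 was lowest. The part of these cells in the Car4 difference after 24 h was not tested.

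On the MCA313 arrays the same pericyte mean was 7.20, 8.05 and 8.79 in uninduced replicates 1, 2 and 3, 8.03 to 8.42 at 24 h and 7.73 to 7.87 at 48 h. The mean of 7 of 15 fibroblast and fibrosarcoma genes was 8.40, 8.69 and 9.49 in the uninduced replicates, 8.76 to 9.51 at 24 h and 8.98 to 9.05 at 48 h. Replicate 3, which had the highest uninduced Car4 level, was thus highest in both lists, and none of their genes passed the test. The part of these cells in the Car4 values was not tested. In J558L tumours the pericyte mean was 7.47 to 8.02 after 24 h, against 6.51 to 7.28 without induction, with all 5 changes positive, a median of 0.56 and none past the test. The mean of 12 of 31 leukocyte genes in MCA313 tumours was 6.59 to 7.02 at 0 h, 7.07 to 7.70 at 24 h and 7.25 to 7.50 at 48 h. Of the 12, Fcgr4, an activating Fc receptor gene, rose by 3.67 ± 0.73 at 24 h (adjusted p = 0.0161, limma) and by 3.33 ± 0.73 at 48 h (adjusted p = 0.0249), and their part was likewise not tested. It was 1 of 12, against 0.684% and 1.37% of all genes past the test at 24 h and 48 h. Its control mean (5.33) lay below the array medians, so the size of the rise is uncertain. Fcgr4 failed without control replicate 1 (adjusted p = 0.0913 at 24 h and 0.124 at 48 h), without replicate 2 at 24 h (0.375) and without replicate 1 at 48 h (0.369). Of 12 listed plasma cell genes 6 were measured. Among them Irf4, an interferon regulatory factor gene, rose in MCA313 tumours at 24 h (3.39, adjusted p = 0.00111, limma) and 48 h (3.04, adjusted p = 0.00367), in J558L tumours (2.90, adjusted p = 0.00956) and in 16.113 tumours (2.51, adjusted p = 0.00111). It was the 1 gene of 6 to rise in each, against 0.684%, 1.37%, 0.547% and 7.36% of all genes past the test in that order. Control means of Irf4 (5.04 in MCA313, 6.09 in J558L and 5.17 in 16.113 tumours) also lay below the array medians. Irf4 did not pass at 48 h without replicate 1 of that time (1.93, adjusted p = 0.277), nor in J558L tumours without either control array (0.151 and 0.0605). Sdc1, which encodes syndecan-1, fell in 16.113 tumours (-0.94, adjusted p = 0.0392), a call lost without any 1 of 4 arrays (0.0627 to 0.255). Neither of the 2 measured erythroid genes passed in any comparison. In 16.113 tumours the pericyte mean was 5.84 to 6.92 in competent arrays, against 6.07 to 6.84 in deficient arrays, and the pan-endothelial mean 10.83 to 11.48, against 11.20 to 11.64.

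The interferon-inducible GTPases, measured for 5 of 12 listed, had positive changes in all 5 comparisons, including those in which Car4 was lower. In kidney 3 of the 5 rose, against 1.64% of all genes that rose. Gm12250 levels there were 12.45, 12.41 and 12.52 after 24 h, against 10.58, 9.48 and 10.55 without induction (2.25 ± 0.45, adjusted p = 0.00614, limma). In 16.113 tumours 4 of the 5 rose, against 2.55% of all genes, with Igtp at 12.93, 12.70 and 12.47 in competent arrays and between 9.63 and 10.46 in deficient ones (2.73 ± 0.27, adjusted p = 5.05e-06, limma). In MCA313 tumours Irgm1 rose at 24 h (1.56 ± 0.34, adjusted p = 0.0328) and 48 h (1.37 ± 0.34, adjusted p = 0.0467), 1 of the 5 each time; without control replicate 1 neither passed (1.02, adjusted p = 0.0621, and 0.82, 0.141), nor without either array of the same induced time (0.121 to 0.376). In kidney Gm12250 failed without control replicate 2 (1.89, adjusted p = 0.0527), Igtp without any 1 of 5 of the 6 arrays (up to 0.114) and Irgm1 without any 1 of the 6 (up to 0.129). In J558L tumours none of the 5 passed, with a median of 0.88.

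Genes whose pattern was most like that of Car4 were ranked by Pearson's r over the 26 arrays after the mean of each set had been removed. The arrays share libraries and normalization with Car4, so r is a description. The 5 highest were Slc16a3 (r = 0.70), Mgst3, a microsomal glutathione transferase gene (0.69), Ulbp1, an NKG2D ligand gene (0.68), Tle2, a transcriptional corepressor gene (0.66), and Atp2a3, a calcium pump gene of the endoplasmic reticulum (0.66). Of all genes 95% had an r between -0.42 and 0.43. Within single sets r of these 5 was 0.57 to 0.89 in MCA313 tumours, 0.40 to 0.78 in J558L tumours, 0.79 to 0.92 in kidney and 0.00 to 0.85 in 16.113 tumours. In kidney Mgst3 (-1.22, adjusted p = 0.00448) and Ulbp1 (-1.56, adjusted p = 0.00186, limma) fell, with 7 of 8 and 6 of 7 probe sets lower. Of all genes 1.53% fell there. The ranking used these same kidney arrays, where Car4 was lower, so a fall in kidney is in part fixed by the ranking. Ulbp1 did not pass with the mean (-0.88, adjusted p = 0.0826) or the median (-0.92, adjusted p = 0.262) of its probe sets, nor in a fit of the kidney arrays alone (adjusted p = 0.0529). None of the 5 passed the test in MCA313 tumours. At the brightest probe sets their changes there were 0.20 to 0.65 at 24 h and 0.14 to 1.18 at 48 h. Car4, which was chosen by its changes in such contrasts, had 2.16 and 1.59. Most probe sets of some of the 5 genes did not share that direction. The median over all probe sets of a gene was -0.26 to 0.23 at 24 h and -0.28 to 0.22 at 48 h. It was negative for Tle2 and Atp2a3 at both times and for Mgst3 at 24 h.

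The 5 genes with the lowest r were Kcnj9 (-0.66), Slfn4 (-0.64), Snora33 (-0.62), Myh3 (-0.60) and 4930405J17Rik (-0.58). Slfn4, an interferon-inducible gene of the Schlafen family, rose in kidney (2.84, adjusted p = 6.78e-06, limma), with all 9 probe sets higher, and in competent 16.113 arrays (1.02, adjusted p = 0.0138), with 8 of 9 higher. Of all genes 1.64% rose in kidney and 2.55% in competent 16.113 arrays. As the ranking used these same arrays, where Car4 was lower, a rise there is in part fixed by it. The kidney call was lost with the median of its probe sets (1.47, adjusted p = 0.135). The 16.113 call was lost with that median (1.44, adjusted p = 0.066), without competent replicate 3 (0.82, adjusted p = 0.104) and in a fit of the 16.113 arrays alone (adjusted p = 0.19). It changed by -0.09 in MCA313 tumours at 24 h, with 1 of 9 probe sets of that sign. The other 4 passed the test in no comparison with a control.

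None of the 8 measured neighbours of Car4 on chromosome 11 passed the test in any comparison. The 4 nearest measured genes at lower coordinates were Znhit3, Myo19, Pigw and Ggnbp2, and those at higher coordinates were Usp32, 1700125H20Rik, Appbp2 and Appbp2os. Their r with Car4 lay between -0.41 and 0.18. Pigw, an acyltransferase gene of GPI anchor synthesis, changed by -0.78 and -0.52 in MCA313 tumours at 24 h and 48 h and by -0.48 in kidney. In kidney the 8 genes changed by -0.60 to 0.44, against -2.60 for Car4, which was chosen in part by this contrast.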

How the data were processed

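Gene expression was measured on Affymetrix arrays in 26 samples. The deposited log2 values per probe set had been normalized by the authors. The submitters' processing notes name Affymetrix Expression Console and limma; how the values were normalized is not given in the sources used. Per the labels' protocols, RNA was amplified with the WT Pico kit. The table held 65535 probe sets, of which 53857 had 1 gene symbol, 766 several and 10912 none in the annotation of the array's probes. Exact values recurred between arrays within 4 sets (at least 421 of them) and almost never between sets (at most 2), so levels were compared only within a set.

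A gene was read at its probe set with the highest mean over all arrays and kept if it lay above the array's 50th percentile in 2 or more arrays, leaving 4386 of 5109 genes. limma 3.58.1 in R 4.3.3 fitted 9 group means to all arrays, with moderated two-sided tests and Benjamini-Hochberg adjustment over all genes of a comparison at 0.05. Groups share 1 estimate of the spread because some hold 2 arrays. "Rose" and "fell" are used of genes past this test. Lists were described by counts and medians, with Car4 left out. The number of arrays limits the precision.

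Car4, the lists and the comparisons were chosen with earlier results of these data known. Named genes are Car4, list members past the test (up to 4 a list and comparison, or up to 2 of the largest changes where none passed), every measured carbonic anhydrase, the 5 highest and 5 lowest correlations with Car4, and the 4 nearest measured genes on either side of it. Ifi205, and Tmem100 and Cd300lg where other list members passed, were added after their values were seen. Same-numbered replicates of the groups of a set deviated from their group means with correlations of -0.144 to 0.113, and same-numbered J558L tumour and kidney arrays of the same time, checked after seeing the data, with -0.094 to 0.0418, so the numbers were not taken to pair samples. The procedure was checked on simulated data. The promoter sequence is from RefSeq (GRCm38.p6). Alternatives were other summaries of a gene's probe sets, other filters, joint quantile normalization, a robust variance prior with a trend, weights for arrays, a replicate block, a fit of only the arrays compared, and leaving out each array.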

Additional observations from a re-analysis of the deposited data

Results flagged for a closer look

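The Car4 response in MCA313 tumours and that in kidney had opposite signs, with no array overlapping its controls, and the difference itself was not tested because it led to the choice of the gene. It was 4.77 between MCA313 at 24 h and kidney, and 4.20 between MCA313 at 48 h and kidney. The response in MCA313 tumours and the difference between competent and deficient 16.113 arrays were also of opposite sign without overlap, and the difference was not tested. They differed by 2.87 with 24 h and by 2.30 with 48 h. The 16.113 comparison sets T cells with IFNγ against T cells without it at 120 h, whereas the other sets induced tumours against uninduced ones at 24 h or 48 h.

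In deficient 16.113 arrays, replicate 4 had a lower Car4 level than the other 4, at 12.33 against 12.51 to 12.58. Its gap to the next array was 0.73 of the range of the group at probe set 17254515. At 17254514 its level was 11.49, against 11.96 to 12.10, and the gap was 0.757 of the range. These were 2 of 9 tests of this kind, 1 for each probe set, on probe sets that share their arrays, and chance alone marks about 1 in 20.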

How the results depend on the processing

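The Car4 difference kept its sign under all 9 alternative settings in MCA313 tumours (1.76 to 2.83 at 24 h, 1.35 to 2.26 at 48 h), kidney (-2.94 to -1.67) and 16.113 tumours, and lay between -0.02 and 0.13 in J558L tumours. Averages over all 9 probe sets include the 2 that do not follow the others. With the mean and with the median of probe sets the kidney difference was -1.67 and the J558L tumour response minus the kidney response 1.65, and with the mean the MCA313 response minus the kidney response was 3.43. Leaving out each array gave 1.76 to 2.83 for MCA313 at 24 h, 1.19 to 2.26 at 48 h, -0.01 to 0.13 for J558L tumours, -3.19 to -2.05 for kidney, and -0.75 to -0.68 for 16.113 tumours (adjusted p 0.322 to 0.47). With the replicate block the Car4 differences were 2.83, 2.26, 0.13, -2.60 and -0.75, in the order MCA313 24 h, MCA313 48 h, J558L tumour, kidney and 16.113, and the adjusted p in 16.113 was 0.268. With it Ace (adjusted p = 0.0701) and Mgst3 (0.0766) did not pass in kidney. Same-numbered arrays did not deviate together.

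The number of listed genes past the test moved more. For MCA313 at 24 h (5 genes) it was 11 with the mean of probe sets, 2 with the replicate block and 0 with only the arrays compared. For MCA313 at 48 h (7 genes) it was 13 with the mean, 12 with the median, 11 with the variance prior with trend, 1 with the block and 0 with only the arrays compared. For J558L tumours (1 gene) it was 4 with the mean, the median or array weights, 0 with the block and 2 with only the arrays compared. For kidney (6 genes) it was 10 with the median or array weights and 2 with the block, and for 16.113 (9 genes) 5 with only the arrays compared. Leaving out single arrays gave 1 to 8, 0 to 8, 0 to 1, 2 to 6 and 6 to 11 genes in the same order. MCA313 at 24 h had 8 without control replicate 3 and 1 without control replicate 1. MCA313 at 48 h had 0 without replicate 1 of that time. The cause was not tested, except that fewer arrays and the block leave fewer degrees of freedom. Slc16a3 in 16.113 changed sign with the mean (0.14) and the median (0.12) of its probe sets, and in J558L tumours when single arrays were left out (-0.15 to 0.34). Of 577 values for single named genes, 433 kept direction and side of the threshold, 140 lost the test and 4 changed sign.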
